A study of Mus musculus with 31 samples.

Results

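The genes described here are the Wnt ligands, their Frizzled receptors, the co-receptors Lrp5 and Lrp6, the R-spondins with their Lgr receptors, and the secreted Wnt inhibitors of the Sfrp, Dkk and Wif1 families, in sorted cells of the newborn mouse pancreas. They were picked out by the name pattern of these families, a set chosen with earlier results of these data known, and 47 of the 38283 genes listed in each expression table carried such a name: 19 Wnt ligands, 10 Frizzled receptors, 2 co-receptors, 3 Lgr receptors, 4 R-spondins and 9 secreted inhibitors. RNA-seq was made from pancreata of C57BL/6 mice at postnatal day 2, which were dissociated and sorted by flow cytometry into YFP+ cells, called mesenchymal, and YFP- cells, called non-mesenchymal. Values for 21 of the series' 31 samples were used, as FPKM, a level scaled to transcript length and library size that can be set side by side between genes.

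In the H19DMD model, control mice were H19DMD+/+; Nkx3.2+/Cre and mutant mice H19DMDfl/+; Nkx3.2+/Cre. Values of 3 control and 4 mutant libraries of each fraction were used, and 1 further control sample of each fraction was not analysed here. In the Igf2 model, control mice were Igf2+/+; Nkx3.2Cre/+ and mutant mice Igf2+/fl; Nkx3.2Cre/+, and the non-mesenchymal fraction gave 4 control and 3 mutant libraries. The mesenchymal fraction of the Igf2 model was not analysed here. Controls and mutants of both models thus carried the Cre allele at Nkx3.2, a transcription factor gene of the pancreatic and gut mesenchyme, and differed in the floxed allele. The H19 differentially methylated domain is the imprinting control region between Igf2 and H19, and the floxed alleles could recombine where the Cre was active. As a check of the labels, Igf2 in the H19DMD model's mesenchymal fraction was at 3849 ± 190 FPKM (SD, n = 3) in controls and 7040 ± 800 (SD, n = 4) in mutants, and H19 at 2446 ± 8.11 and 700.3 ± 123 FPKM, so both genes at the targeted locus stood apart by genotype in the direction of the labels.

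As background, Wnt proteins are lipid-modified secreted ligands that bind Frizzled receptors on nearby cells. Together with the co-receptors Lrp5 and Lrp6 they stabilise beta-catenin, and without them they can act through other routes such as planar cell polarity. R-spondins strengthen the response by binding Lgr receptors and removing Rnf43 and Znrf3, ligases that clear Frizzled from the membrane, while Sfrp and Wif1 proteins bind Wnts, and Dkk proteins act on the co-receptors. In the developing pancreas, the mesenchyme is a known source of signals for the epithelium that forms acinar, ductal and endocrine cells.

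The fractions differed in the markers of many cell types. The summed level of 10 mesenchymal markers was 5325 to 6274 FPKM in control mesenchymal libraries and 33.98 to 89.9 FPKM in control non-mesenchymal libraries of the H19DMD model, although Nkx3-2 itself stayed below 1 FPKM in each control mesenchymal library. Summed endocrine markers (10 genes) ran from 74.1 to 234.9 FPKM in the control mesenchymal and from 19670 to 29800 FPKM in the control non-mesenchymal libraries. Acinar, ductal and leukocyte markers were likewise high in the latter, while endothelial markers were somewhat higher in the former, at 85.8 to 91.0 against 17.0 to 42.2 FPKM. The non-mesenchymal fraction is thus a mixture, and in such bulk samples fewer cells of a type and less RNA per cell cannot be told apart. The 3 genes with the highest values took 38.2 to 58.2% of the summed FPKM of a library in the H19DMD model and 60.5 to 82.5% in the Igf2 model, and total read counts are unknown. The steps between low values put the range of depth at about 2.204-fold within the H19DMD table and 2.33-fold within the Igf2 table. The labels do not say whether replicates were separate animals, so p-values measure the spread between these samples.

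Promoter sequences were found for 30 of the 47 genes in the RefSeq table of build GRCm38.p6, and for 8 of the 16 genes that passed the test between the fractions in the results below. The 250 bases before the start site are printed here for the 4 of these that no annotated exon of the gene covered by more than 1 base and whose start matched an annotated transcript. Rspo1, Dkk2 and Sfrp2 were higher in the mesenchymal fraction and Fzd5 was lower, so the 4 windows show both directions. Capitals mark matches on either strand to GGGCGG (GC box), CCAAT (a promoter element of many genes) or TATAAA (the element that TBP binds), or to the TCF/LEF words, which were CTTTGAA or CTTTGAT as well as CTTTGTA or CTTTGTT, each searched as written and as its reverse complement, with neighbouring matches allowed to overlap.
Rspo1, chr4:124986180-124986429, plus strand: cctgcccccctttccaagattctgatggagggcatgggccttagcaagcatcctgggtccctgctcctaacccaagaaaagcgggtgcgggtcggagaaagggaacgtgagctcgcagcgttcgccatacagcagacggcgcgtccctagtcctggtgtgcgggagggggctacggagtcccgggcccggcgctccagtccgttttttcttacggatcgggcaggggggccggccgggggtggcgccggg
Dkk2, chr3:132085042-132085291, plus strand: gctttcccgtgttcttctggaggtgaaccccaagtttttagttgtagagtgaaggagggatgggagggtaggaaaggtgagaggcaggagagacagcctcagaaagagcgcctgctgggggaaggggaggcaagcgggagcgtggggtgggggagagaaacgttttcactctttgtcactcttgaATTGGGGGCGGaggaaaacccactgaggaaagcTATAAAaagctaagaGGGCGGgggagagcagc
Sfrp2, chr3:83766071-83766320, plus strand: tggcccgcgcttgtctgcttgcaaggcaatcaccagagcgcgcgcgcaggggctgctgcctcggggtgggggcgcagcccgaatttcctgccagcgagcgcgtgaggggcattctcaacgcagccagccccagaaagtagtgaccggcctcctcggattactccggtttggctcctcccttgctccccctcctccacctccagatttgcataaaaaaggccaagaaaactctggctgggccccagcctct
Fzd5, chr1:64737751-64738000, minus strand: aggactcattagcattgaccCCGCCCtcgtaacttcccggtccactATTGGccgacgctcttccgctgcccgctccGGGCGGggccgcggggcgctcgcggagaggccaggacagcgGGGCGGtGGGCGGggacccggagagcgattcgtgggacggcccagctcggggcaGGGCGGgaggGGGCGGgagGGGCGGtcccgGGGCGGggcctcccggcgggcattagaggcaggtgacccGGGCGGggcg
The Fzd5 window held 9 GC boxes and a GC content of 76.4%. The Dkk2 window held 2 GC boxes, a CCAAT match and a TATAAA match shortly before the start at a GC content of 55.6%, and the Rspo1 and Sfrp2 windows held none of these words. Over all 32851 windows of this length in the table, 32.7% held a GC box, 33.9% a CCAAT match, 12.4% a TATAAA match and 14.8% a TCF/LEF word. Of the 33 windows of the 47 genes, 69.7% held a GC box and 12.1% a TCF/LEF word, and their median GC content was 66.8% against 52.4% over the table. Of the 8 genes with a window that passed the test between fractions, 1 held a TCF/LEF word (Fzd7), 2 held TATAAA, 5 held a GC box and 5 held CCAAT. These matches describe letters, not bound sites.

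Mesenchymal cells held more mRNA of 2 Wnt ligands, 4 Frizzled receptors, 2 R-spondins and 5 secreted inhibitors than non-mesenchymal cells. This held in controls and in mutants of the H19DMD model. The 13 genes were Wnt5a, Wnt2b, Fzd1, Fzd2, Fzd4, Fzd7, Rspo1, Rspo3, Sfrp1, Sfrp2, Sfrp4, Dkk2 and Dkk3. Fzd5 and Lrp5 were lower in mesenchymal cells of both genotypes, and Fzd6 was lower in those of mutants. In controls, limma on log2(FPKM + 1) with a Benjamini-Hochberg adjusted p under 0.05 called 13 of the 24 members tested higher and 2 lower, where 12.4% of all 16732 genes tested were called higher and 10.3% lower. In mutants it called 13 of 23 higher and 3 lower, against 13.5% and 15.1% of 16767 genes. The 13 genes called higher were the same in both genotypes, whose libraries are separate, as were 2 of the 3 called lower.

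Genes whose average over both groups of a comparison fell below 1 FPKM were left out of its test. Dkk2, Rspo3, Sfrp2, Sfrp4 and Wnt11 were below 1 FPKM on average in control non-mesenchymal cells and so could enter the test only through their level in the mesenchymal fraction. The same held in mutants for Dkk2, Rspo1, Rspo3, Sfrp2 and Sfrp4, so the counts above describe these genes and are not support for a difference of the list. The median difference of the 24 members tested in controls was 1.72 on the log2 scale against 0.08 over all genes tested, and over all 47 members it was 0.02. In mutants the medians were 1.27 over the members tested, -0.03 over all genes tested and 0.05 over all 47 members. Of the 47 genes, 16 had a mean under 1 FPKM in each of the 6 groups, among them Wnt1, Wnt2, Wnt3, Wnt3a, Wnt6, Wnt9b, Dkk1, Rspo2, Lgr6 and Wif1, and Wnt3a and Dkk4 were listed at 0 in each library.

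**Figure D1:**
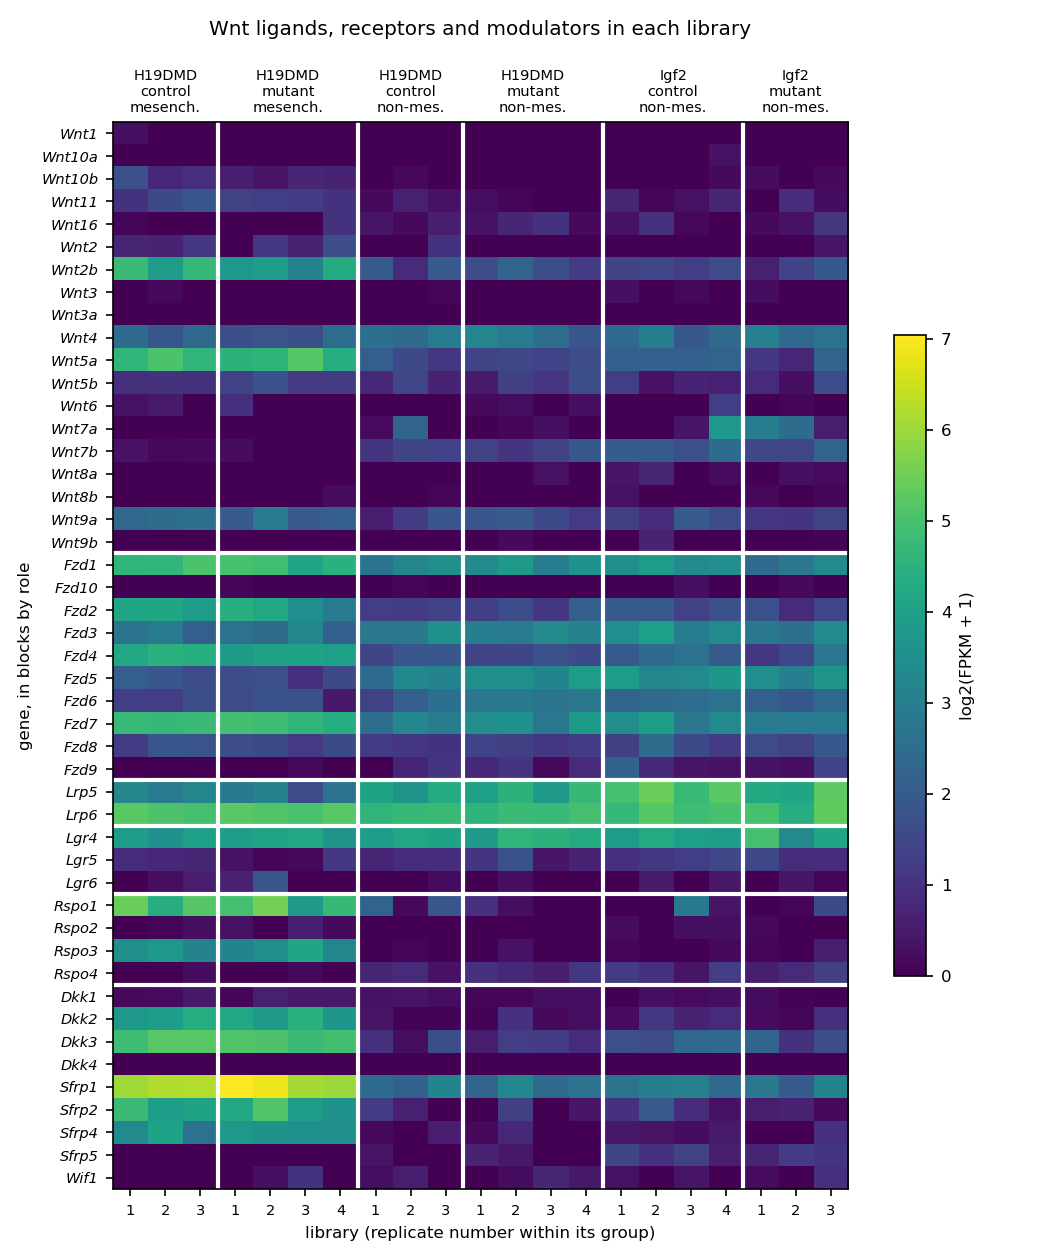
Level of each of the 47 genes, as log2(FPKM + 1), in each of the 21 libraries. Rows are genes in blocks by role (ligands, Frizzled receptors, co-receptors, Lgr receptors, R-spondins, secreted inhibitors) and columns are libraries by group, where mesench. is the mesenchymal and non-mes. the non-mesenchymal fraction. Sfrp1 reaches 130.7 FPKM in mutant mesenchymal cells, and Dkk4 and Wnt3a stay at 0 throughout.

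Among the ligands, Wnt5a, which acts largely through routes that do not use beta-catenin, and Wnt2b, a ligand of the beta-catenin route, made up most of the Wnt mRNA of mesenchymal cells. In H19DMD controls, Wnt5a was at 24.1, 32.1 and 24.0 FPKM in the mesenchymal libraries and 3.29, 1.91 and 1.22 in the non-mesenchymal ones. In mutants it was at 22.0, 22.8, 35.6 and 19.7 FPKM against 1.75, 1.83, 1.68 and 2.18. Each mesenchymal library lay far above each non-mesenchymal library, so the fractions did not overlap in either genotype. The mean was 12.5-fold higher in controls and 13.4-fold higher in mutants, with fitted log2(FPKM + 1) differences of 3.18 ± 0.29 (SE, limma adjusted p = 9.32e-04) and 3.15 ± 0.21 (adjusted p = 1.64e-05). An exon of Gm2670 overlaps Wnt5a on the opposite strand, and whether reads were assigned by strand is not given in the sources used here, so part of the signal could come from either gene.

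Wnt2b was at 26.7, 13.7 and 24.9 FPKM in control mesenchymal and 2.97, 0.822 and 2.92 in control non-mesenchymal libraries. The mutant libraries held 12.6, 13.8, 7.90 and 19.1 FPKM in the mesenchymal and 2.19, 3.74, 2.21 and 1.40 in the non-mesenchymal fraction. The fractions were again separate in both genotypes, but Wnt2b varied more between mesenchymal libraries than Wnt5a did in controls. The log2(FPKM + 1) difference was 2.85 ± 0.42 in controls (limma adjusted p = 0.00520) and 2.07 ± 0.30 in mutants (adjusted p = 0.00130). Wnt5a and Wnt2b together took 76.5 to 78.7% of the summed ligand FPKM in control mesenchymal libraries.

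In non-mesenchymal cells the ligand at the top of the order was instead Wnt4, with 32.7% of the summed ligand FPKM on average in H19DMD controls and 33.55% in mutants. Wnt4, a ligand known from kidney and gonad development, did not differ between fractions beyond its spread. Its mean was 3.75 ± 0.940 FPKM (SD, n = 3) in control mesenchymal and 5.25 ± 1.06 (SD, n = 3) in control non-mesenchymal cells, with a log2 difference of -0.40 and a 95% interval of -1.02 to 0.21 (limma adjusted p = 0.320). In the order of mean levels in control non-mesenchymal cells, Wnt4 lay above all others in each library, followed by Wnt2b, Wnt5a, Wnt7b and Wnt9a, and the library ranges of these 4 overlapped one another.

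Wnt9a had each mesenchymal library above each non-mesenchymal one in both genotypes but did not pass the test. It was at 4.24, 4.64 and 5.02 FPKM against 0.464, 1.33 and 2.62 in controls, a log2 difference of 1.28 (limma adjusted p = 0.0565), and in mutants the difference was 0.62 (adjusted p = 0.149). Wnt11 stood at 1.05, 2.00 and 2.67 FPKM against 0.140, 0.538 and 0.2797 in controls (adjusted p = 0.0737) and fell below the level for testing in mutants, where it was called higher only once the minimum was lowered to 0.1 FPKM (log2 difference 1.14, adjusted p = 0.00181). Wnt5b did not separate the fractions, with a control log2 difference of 0.02 and a 95% interval of -0.79 to 0.83.

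Wnt7b, an epithelial ligand in many organs, showed the opposite pattern at low levels. It was at 0.269, 0.113 and 0.140 FPKM in control mesenchymal and 1.13, 1.78 and 1.68 in control non-mesenchymal libraries, and at 0.167, 0, 0 and 0 against 1.56, 1.11, 1.62 and 2.81 in mutants. Its mean over the libraries compared was under 1 FPKM. With the minimum lowered to 0.1 FPKM, limma called it lower in mesenchymal cells of controls (log2 difference -1.10, adjusted p = 0.0174) and of mutants (-1.38, adjusted p = 0.0026). Under the same minimum Wnt10b was called higher in mesenchymal cells of both genotypes (1.10, adjusted p = 0.0489, and 0.60, adjusted p = 0.0193), at levels of 2.27, 0.751 and 0.921 FPKM in control mesenchymal libraries. Exons of AU022754 overlap Wnt7b and exons of Gm8398 overlap Wnt11 on the opposite strand, with the same limit as for Wnt5a.

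The Frizzled receptors split by fraction. Fzd1, Fzd2, Fzd4 and Fzd7 were higher in mesenchymal cells, Fzd5 was higher in non-mesenchymal cells, and Fzd3 and Fzd8 did not pass the test in either genotype. Fzd4, which besides Wnts also binds the ligand norrin, was at 17.6, 21.4 and 19.9 FPKM in control mesenchymal libraries against 1.76, 2.70 and 2.78 in control non-mesenchymal ones. Its mutant libraries held 13.2, 15.6, 16.1 and 14.6 FPKM against 1.70, 1.78, 2.36 and 1.91. The fractions were widely apart in both genotypes, by 2.61 ± 0.21 on the log2(FPKM + 1) scale in controls (limma adjusted p = 5.70e-04) and 2.44 ± 0.16 in mutants (adjusted p = 1.48e-05).

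Fzd2, a receptor for Wnt5a among others, stood at 16.9, 16.7 and 13.9 FPKM in control mesenchymal libraries and 1.45, 1.38 and 1.62 in control non-mesenchymal libraries. The mutants had 20.2, 17.7, 9.87 and 6.59 FPKM against 1.49, 2.19, 1.20 and 3.41. The fractions did not overlap, though the mutant mesenchymal libraries 3 and 4 were nearer to the non-mesenchymal ones than libraries 1 and 2. The sum of 7 smooth muscle and pericyte markers was 746.8, 412.1, 403.6 and 146.8 FPKM in these mutant mesenchymal libraries 1 to 4, 482.9 to 820.5 in control mesenchymal and 13.7 to 17.1 in control non-mesenchymal libraries, and its part in the Fzd2 values was not tested. The log2 difference was 2.76 ± 0.18 in controls (limma adjusted p = 3.21e-04) and 2.18 ± 0.38 in mutants (adjusted p = 0.00326).

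Fzd1 and Fzd7, close relatives of Fzd2, had the top mean levels of the family in mesenchymal cells but were also well above 1 FPKM in non-mesenchymal cells. Control mesenchymal libraries held 25.7, 25.4 and 26.8 FPKM of Fzd7 and control non-mesenchymal libraries 4.80, 8.53 and 6.98. For mutants the Fzd7 levels were 29.1, 27.9, 23.2 and 19.7 FPKM and 10.1, 10.9, 5.85 and 13.4. Fzd7 was thus 3.84-fold higher in mesenchymal cells of controls (log2 difference 1.83 ± 0.23, limma adjusted p = 0.00273) and 2.48-fold in mutants (1.27 ± 0.25, adjusted p = 0.00636), with no overlap of libraries. Levels of Fzd1 were 23.2, 24.0 and 32.1 FPKM against 5.54, 8.15 and 10.5 in controls. In mutants they were 30.8, 28.7, 16.8 and 21.7 against 8.90, 12.7, 6.80 and 11.2. Its fractions were also separate, at log2 differences of 1.62 ± 0.27 (limma adjusted p = 0.00823) and 1.22 ± 0.25 (adjusted p = 0.00801).

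Fzd5, a receptor of epithelial tissues, was the Frizzled called lower in mesenchymal cells of both genotypes. It was at 3.34, 2.74 and 2.03 FPKM in control mesenchymal and 4.56, 8.80 and 7.94 in control non-mesenchymal libraries. In mutants, the levels were 2.18, 2.26, 0.973 and 1.94 FPKM and 10.1, 10.3, 8.02 and 13.5. The gap was narrow in controls, between 3.34 and 4.56 FPKM, and wide in mutants. The log2 difference was -1.10 ± 0.30 in controls (limma adjusted p = 0.0457) and -2.02 ± 0.24 in mutants (adjusted p = 3.70e-04). The control call was lost with a minimum of 0.1 FPKM or none (adjusted p = 0.0623 and 0.0706) and when libraries were left out: without mesenchymal library 1, 2 or 3 its adjusted p was 0.0761, 0.106 and 0.125, and without non-mesenchymal library 2 or 3 it was 0.140 and 0.134. Gm38058 overlaps Fzd5 on the opposite strand, so its reads cannot be told apart from those of Fzd5 if strand was not used.

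Fzd6, which can counter the beta-catenin route and takes part in planar polarity, was at 1.49, 1.45 and 2.21 FPKM in control mesenchymal and 1.64, 3.26 and 4.96 in control non-mesenchymal libraries. In mutants it was at 2.09, 2.33, 2.33 and 0.407 FPKM against 5.90, 6.13, 5.57 and 5.96. The fractions overlapped in controls (log2 difference -0.59, limma adjusted p = 0.308) and were separate in mutants (-1.39 ± 0.30, adjusted p = 0.0103). The difference between these effects was itself -0.79 ± 0.47 and did not pass the test (limma adjusted p = 0.857). The exon of another gene, Gm26704, overlaps Fzd6 on the opposite strand. Fzd3, another polarity receptor, gave a control log2 difference of -0.47 with a 95% interval of -1.27 to 0.33, and Fzd8 of 0.52 with -0.18 to 1.21.

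The co-receptors moved in different directions, and only the lower Lrp5 passed the test. Lrp5 was at 8.49, 6.48 and 8.24 FPKM in control mesenchymal libraries and 16.01, 11.4 and 19.05 in control non-mesenchymal libraries. The mutant values were 6.19, 7.81, 2.02 and 5.24 FPKM and 14.9, 21.9, 13.05 and 25.4. No library of a fraction reached the range of the other, and the mean was 2.00-fold lower in mesenchymal cells of controls and 3.54-fold lower in mutants. The log2 differences were -0.90 ± 0.24 (limma adjusted p = 0.0446) and -1.71 ± 0.36 (adjusted p = 0.00905). In controls the call was lost without mesenchymal library 1, 2 or 3 (adjusted p = 0.0901, 0.124 and 0.0961) and without non-mesenchymal library 1 or 3 (0.112 and 0.121). It was also lost with a minimum of 0.1 FPKM, with no minimum and without the variance trend (adjusted p = 0.0556, 0.0583 and 0.0534).

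Lrp6 was more abundant than Lrp5 in each library of both fractions of the H19DMD model and differed little between them. Its mean was 33.1 ± 3.46 FPKM (SD, n = 3) in control mesenchymal and 24.9 ± 1.36 (SD, n = 3) in control non-mesenchymal cells. Within each genotype all mesenchymal libraries lay above all non-mesenchymal ones, but the log2 differences of 0.39 in controls and 0.38 in mutants did not pass (limma adjusted p = 0.138 and 0.0691). Lgr4, a broadly expressed R-spondin receptor, made up 86.0 to 99.4% of the summed Lgr level of a mesenchymal library and also did not differ beyond the spread. It had 13.1 ± 2.21 FPKM in control mesenchymal and 15.8 ± 1.40 in control non-mesenchymal cells (SD, n = 3 each), a log2 difference of -0.26 with a 95% interval of -0.72 to 0.21. Lgr5, a stem cell marker in the gut, had at most 2.35 FPKM in any library of the H19DMD model.

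R-spondin mRNA was far more abundant in mesenchymal libraries, where Rspo1 and Rspo3 made up at least 98.0% of the summed level of the 4 genes. Rspo1, whose promoter is printed above, was at 42.8, 19.9 and 35.5 FPKM in control mesenchymal and 3.85, 0.129 and 2.61 in control non-mesenchymal libraries. Mutant libraries had 30.0, 46.3, 13.1 and 25.5 FPKM against 0.941, 0.193, 0 and 0. The fractions did not overlap, but Rspo1 varied widely between libraries of a group, from 19.9 to 42.8 FPKM in control and from 13.1 to 46.3 FPKM in mutant mesenchymal cells. The log2 difference was 3.57 ± 0.61 in controls (limma adjusted p = 0.00899) and 4.46 ± 0.39 in mutants (adjusted p = 7.59e-05).

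Markers of mesothelium, the cell layer that covers the organ, were also higher in the mesenchymal fraction. Their sum over 6 genes was 161.1 to 346.1 FPKM in control mesenchymal libraries and 39.5 to 55.5 in the control non-mesenchymal ones, where most of it was Krt19, which is also a ductal gene. In control non-mesenchymal libraries 1 to 3, where Rspo1 was at 3.85, 0.129 and 2.61 FPKM, Wt1 was at 1.92, 0 and 0.464 FPKM and Msln at 1.63, 0.689 and 1.55, both in the same order as Rspo1. Upk3b (2.51, 0.690 and 0.549 FPKM) and Lrrn4 (1.85, 0.295 and 0.294) were high in library 1 alone. Gpm6a (1.82, 1.36 and 2.04 FPKM) was at its top in library 3, and Krt19 (29.8, 50.6 and 50.6) was lowest in library 1. In mesenchymal libraries of each genotype the mesothelial sum ran in the same order as Rspo1. It was 346.1, 161.1 and 172.8 FPKM in control libraries 1 to 3. In mutant libraries 1 to 4 it was 137.9, 158.1, 109.6 and 109.7 FPKM. Single markers did not all keep this order, as Wt1 was at 76.5, 49.0 and 45.7 FPKM in control libraries 1 to 3. The part of mesothelial cells in the Rspo1 values was not tested.

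Rspo3, an R-spondin of connective tissue and vessels, was at 10.4, 12.6 and 7.87 FPKM in control mesenchymal libraries and 0, 0.0914 and 0 in control non-mesenchymal libraries. In mutants, mesenchymal libraries held 7.96, 10.2, 17.0 and 8.32 FPKM and non-mesenchymal ones 0, 0.264, 0 and 0. Most non-mesenchymal libraries were thus listed at 0, and no fold is given. The log2(FPKM + 1) difference was 3.43 ± 0.25 in controls (limma adjusted p = 4.40e-04) and 3.42 ± 0.27 in mutants (adjusted p = 4.19e-05). Exons of Gm48159 overlap Rspo3 on the opposite strand. Rspo4 was low and ran the other way, at 0 to 0.174 FPKM in mesenchymal and 0.262 to 1.20 FPKM in non-mesenchymal libraries of the H19DMD model, and Rspo2 did not exceed 0.497 FPKM.

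The secreted inhibitors formed the most abundant class in mesenchymal cells. Sfrp1, a soluble Frizzled-related protein that binds Wnts, was at 65.1, 72.4 and 74.5 FPKM in control mesenchymal libraries and 4.47, 3.58 and 8.03 in control non-mesenchymal ones. Mutants had 131, 114, 67.6 and 62.3 FPKM against 3.94, 8.68, 4.38 and 5.20. Sfrp1 led the order of all 47 genes in each mesenchymal library, and its level in mutant libraries 1 and 2 was well above that in libraries 3 and 4. The mean was 13.2-fold higher in mesenchymal cells of controls (log2 difference 3.55 ± 0.28, limma adjusted p = 5.56e-04) and 16.9-fold higher in mutants (3.83 ± 0.31, adjusted p = 5.12e-05).

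Dkk3, a divergent Dickkopf protein with an unsettled role in Wnt signalling, was the next inhibitor by mean level in mesenchymal cells of both genotypes. Its control levels were 27.9, 36.2 and 36.1 FPKM in mesenchymal and 0.967, 0.195 and 2.25 in non-mesenchymal libraries. Mutant levels were 33.6, 33.0, 27.1 and 28.8 and 0.477, 1.43, 1.36 and 0.779 FPKM. Mesenchymal values kept within a narrow range and never came near the others, with log2 differences of 4.12 ± 0.39 in controls (limma adjusted p = 9.85e-04) and 3.999 ± 0.21 in mutants (adjusted p = 5.84e-06).

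Dkk2, which binds Lrp5 and Lrp6, was at 12.6, 14.1 and 19.4 FPKM in control mesenchymal libraries against 0.294, 0.0554 and 0.0581 in control non-mesenchymal ones. In mutants, the values were 17.1, 12.7, 21.5 and 12.1 and 0.0541, 0.979, 0.116 and 0.199 FPKM. It was near 0 outside the mesenchymal fraction, and the log2 difference was 3.83 ± 0.25 in controls (limma adjusted p = 2.94e-04) and 3.67 ± 0.28 in mutants (adjusted p = 3.59e-05). Dkk1, a related inhibitor, was at most 0.538 FPKM in any library.

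Sfrp2 and Sfrp4, further Frizzled-related proteins of connective tissue, repeated the pattern at lower levels. Sfrp2 had 26.6, 14.3 and 15.8 FPKM in control mesenchymal and 1.40, 0.531 and 0 in control non-mesenchymal libraries. Mutants showed 18.1, 34.0, 13.8 and 11.1 against 0, 1.53, 0 and 0.348 FPKM. The fractions were separate, at log2 differences of 3.64 ± 0.41 (limma adjusted p = 0.00186) and 3.77 ± 0.42 (adjusted p = 2.84e-04), and exons of Gm26771 overlap Sfrp2 on the opposite strand. For Sfrp4 the control values were 9.25, 15.8 and 5.31 FPKM against 0.132, 0 and 0.472. The mutant values were 12.6, 11.01, 10.4 and 10.3 against 0.127, 0.761, 0 and 0. Sfrp4 varied more between control than between mutant mesenchymal libraries, and its log2 differences were 3.12 ± 0.41 (limma adjusted p = 0.00352) and 3.34 ± 0.24 (adjusted p = 2.53e-05). Sfrp5, by contrast, was listed at 0 in each mesenchymal library and reached 0.588 FPKM in non-mesenchymal libraries of the H19DMD model.

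For a single gene with 3 libraries against 3, the exact two-sided permutation test cannot go below 0.1, and it gave 0.1 for each of the 15 genes called in controls. With 4 against 4 its smallest value is 0.0286, which it gave for each of the 16 genes called in mutants. The test thus adds only that no library of one fraction overlapped the other in these genes. The summed markers of all 10 cell type lists also differed between the fractions without overlap in both genotypes. Mesenchymal, smooth muscle and pericyte, mesothelial and endothelial sums were higher in mesenchymal libraries. Acinar, ductal, endocrine, leukocyte, erythroid (16.3 to 18.7 against 104.0 to 337.2 FPKM in controls) and neural and glial sums (5.43 to 7.42 against 24.96 to 43.9) were lower. Their part in any single gene was not tested.

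**Figure D2:**
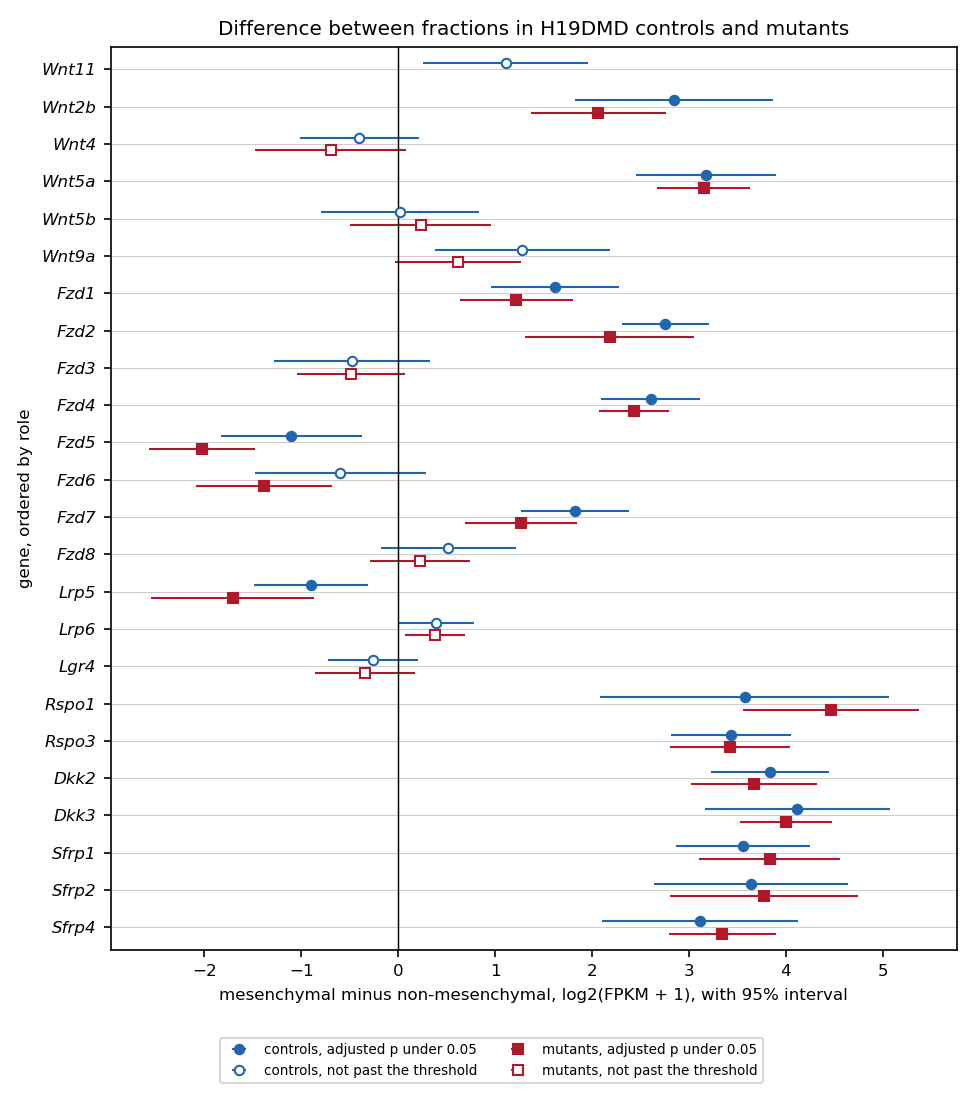
Difference between fractions, mesenchymal minus non-mesenchymal on the log2(FPKM + 1) scale with its 95% interval, for each gene tested in H19DMD controls (circles) and mutants (squares). Filled points passed the adjusted p threshold of 0.05. The 13 genes to the right with filled points in both genotypes range from Fzd1 (1.62) to Dkk3 (4.12) in controls and from Fzd1 (1.22) to Rspo1 (4.46) in mutants, and Fzd5 and Lrp5 lie to the left.

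By class, the sums describe how unequal the shift was. Summed secreted inhibitors stood at 149 ± 6.25 FPKM (SD, n = 3) in control mesenchymal and 8.07 ± 2.93 (SD, n = 3) in control non-mesenchymal cells, an 18.4-fold ratio. This class was set by gene name and left out the secreted inhibitors Frzb and Sostdc1, which ran the other way. Mean Frzb was 0.0742 FPKM in control mesenchymal and 8.74 in control non-mesenchymal cells, and mean Sostdc1 0.332 and 29.97. Of 9 modulators outside these names that were tested in controls, limma called 5 higher and 2 lower. The ratio thus holds for the named genes only. Summed R-spondins had a ratio of 15.3, from 43.2 ± 10.4 to 2.82 ± 1.77 FPKM. The ligands followed with 62.5 ± 3.75 against 16.1 ± 1.76 FPKM, a ratio of 3.88, and the Frizzled receptors with 99.5 ± 3.95 against 38.4 ± 10.5 FPKM, a ratio of 2.59. In mutants the ratios were 32.7 for R-spondins, 20.6 for inhibitors, 3.15 for ligands and 1.77 for Frizzled receptors. R-spondins thus came before inhibitors in mutants and after them in controls. These 4 classes did not overlap between fractions in either genotype. In controls the co-receptors summed to 40.9 ± 3.89 against 40.4 ± 4.33 FPKM and the Lgr receptors to 14.1 ± 2.27 against 16.7 ± 1.51 FPKM, with overlapping libraries.

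**Figure D3:**
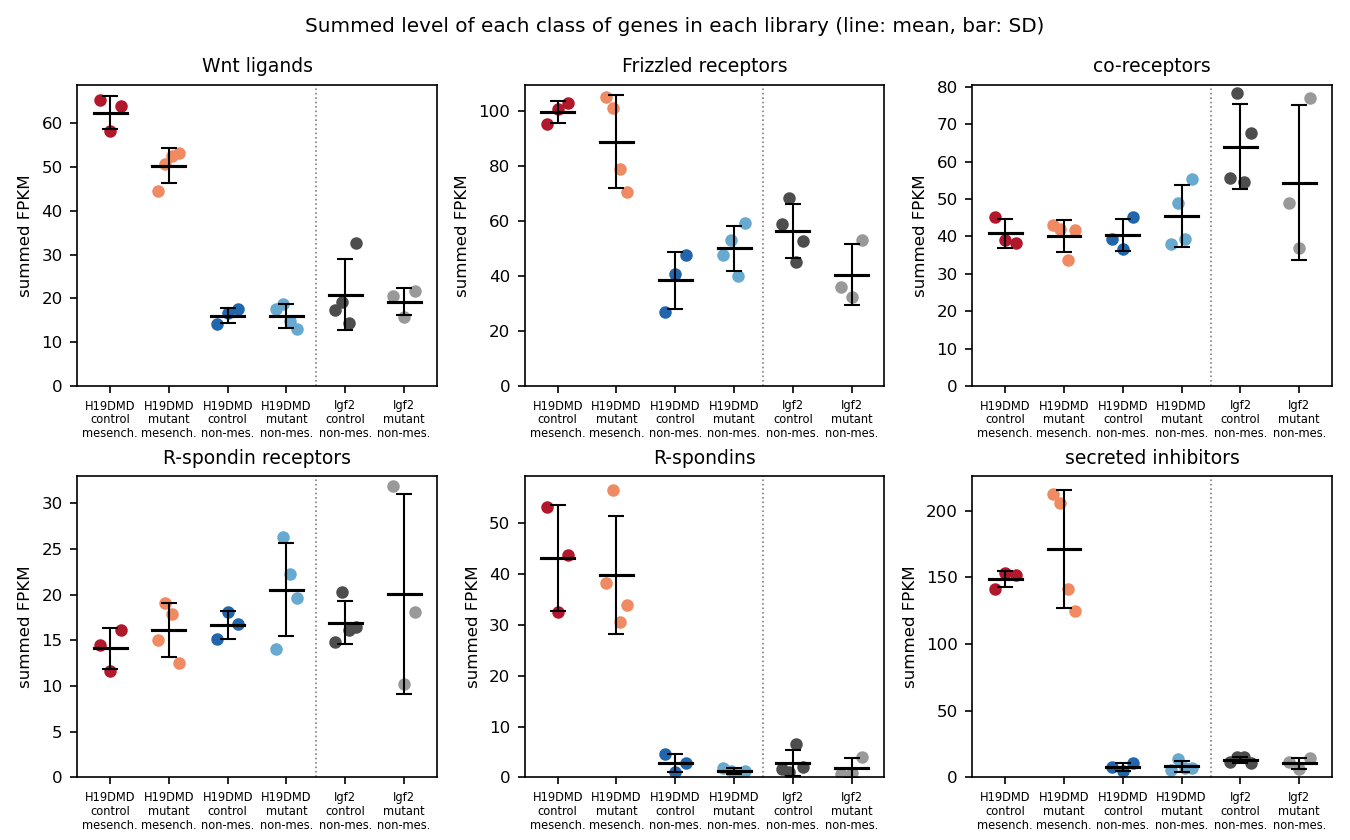
Summed FPKM of each class of genes in each library (points), with the mean (line) and SD (bar) of each group, where mesench. is the mesenchymal and non-mes. the non-mesenchymal fraction. The dotted line parts the H19DMD and Igf2 tables, which were normalised separately. Ligands, Frizzled receptors, R-spondins and secreted inhibitors lie higher in the mesenchymal groups, while co-receptor sums have means of 40.1 to 45.4 FPKM in the 4 H19DMD groups.

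Of 72 other genes of the Wnt pathway, 64 passed the expression minimum between fractions. In controls limma called 23 of them higher and 11 lower in mesenchymal cells, and in mutants 23 higher and 10 lower. Over all genes tested, 12.4% were called higher and 10.3% lower in controls, and 13.5% and 15.1% in mutants, so the count called lower in mutants was near that of all genes. The median log2 difference of these 64 genes was 0.44 in controls and 0.34 in mutants, against 0.08 and -0.03 over all genes tested. Some genes could enter the test only through the fraction where they were high. In controls, Cthrc1, Gpr124, Nkd1 and Daam2 were below 1 FPKM on average in non-mesenchymal cells, and Rnf43, Frzb, Sostdc1 and Celsr3 in mesenchymal cells. The counts and medians thus describe these genes and are not support for a difference of the list. Of 17 genes of alternative receptors and polarity, 8 were higher and 3 lower in controls, and of 11 feedback and target genes 5 were higher and 3 lower. Of 15 cytoplasmic genes, 1 was higher and 1 lower.

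Called genes were ordered by log2 difference. In control mesenchymal cells the highest was Cthrc1, a secreted protein that favours the polarity route (4.39 ± 0.34, limma adjusted p = 5.20e-04). Next came Gpr124, a co-activator of Wnt7 signalling (3.61 ± 0.30), and Gpc3, a glypican (3.56 ± 0.16). In mutants the highest were Gpr124 (4.09), Cthrc1 (3.86) and Gpc6, another glypican (3.51). Genes called lowest in control mesenchymal cells were Sostdc1, a secreted Wnt and BMP antagonist (-4.50 ± 0.41), Rnf43, the ligase that clears Frizzled receptors (-3.69 ± 0.28), and Tcf7, a nuclear partner of beta-catenin (-3.15 ± 0.27). In mutants the lowest were Sostdc1 (-3.60), Rnf43 (-3.44) and Frzb, a Frizzled-related inhibitor outside the Sfrp names (-3.09). Ratios of mean FPKM would give another order in controls. Mean Nkd1 was 12.7 FPKM in control mesenchymal and 0.262 in control non-mesenchymal cells, and mean Gpr124 21.8 and 0.929. Mean Frzb was 0.0742 and 8.74 FPKM, and mean Tcf7 2.43 and 29.8. Rnf43 was listed at 0 in each control mesenchymal library and was at 10.1, 9.71 and 17.1 FPKM in control non-mesenchymal libraries. Tcf7 and its relative Lef1 are also expressed by lymphocytes, and the 7 leukocyte markers summed to 17.2 to 31.9 FPKM in control mesenchymal against 380.5 to 619.9 in control non-mesenchymal libraries. The part of leukocytes in these values was not tested.

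Axin2, a feedback target of the beta-catenin route, was looked at after its values were seen. It was at 9.54, 16.2 and 18.6 FPKM in control mesenchymal and 3.71, 2.54 and 1.79 in control non-mesenchymal libraries. In mutants it was at 10.9, 7.32, 13.3 and 8.89 FPKM against 7.42, 5.66, 3.97 and 5.35. The fractions were well apart in controls (log2 difference 2.09 ± 0.33, limma adjusted p = 0.00677). In mutants they overlapped, though the difference passed the test (0.75 ± 0.24, adjusted p = 0.0467). The difference between these effects, -1.34 ± 0.40, did not pass the test over all genes (unadjusted p = 0.00536, limma adjusted p = 0.755). Axin2 does not stand for all target genes, as 5 of the 11 feedback and target genes were called higher and 3 lower in controls. Mean Ccnd1 was 24.2 FPKM in control mesenchymal and 116.8 in control non-mesenchymal cells, and mean Tnfrsf19 7.09 and 19.5.

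No Wnt ligand, receptor or modulator was called between H19DMD mutants and controls in mesenchymal cells. None of the 24 members tested passed the limma threshold, where 0.0694% of all 15856 genes did. At an unadjusted p under 0.05 there was 1 of the 24, against 4.76% of all genes. The median log2 difference was -0.12 over the members and -0.07 over all genes. Fzd4 had the smallest p: the values above put each mutant library (13.2 to 16.1 FPKM) below each control library (17.6 to 21.4 FPKM), a log2 difference of -0.38 with a 95% interval of -0.75 to -0.00 (limma adjusted p = 0.927). The exact two-sided permutation p was 0.0571, the smallest that 4 against 3 libraries allow with the smaller tail doubled.

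Wnt2b came next, at 13.3 ± 4.59 FPKM in mutant mesenchymal cells (SD, n = 4) against 21.8 ± 7.06 in controls (SD, n = 3). Its libraries overlapped, and the log2 difference was -0.67 with a 95% interval of -1.49 to 0.14 (limma adjusted p = 0.927). Lrp5 was at 5.32 ± 2.44 against 7.74 ± 1.10 FPKM, a log2 difference of -0.56 (-1.46 to 0.33, adjusted p = 0.927). Summed ligand levels were 44.6 to 53.3 FPKM in mutants and 58.2 to 65.3 in controls and did not overlap, which is given as a description. The mesothelial marker sum was also lower in mutant mesenchymal libraries, at 109.6 to 158.1 FPKM against 161.1 to 346.1, with none of the 6 markers at 0. Of these, Msln and Lrrn4 did not overlap between genotypes, while Wt1, Upk3b, Gpm6a and Krt19 did. The ductal marker sum was also lower without overlap, at 14.9 to 34.5 against 35.9 to 80.9 FPKM, and the smooth muscle and pericyte sum overlapped, at 146.8 to 746.8 against 482.9 to 820.5 FPKM. The part of these cell types in the values was not tested. The intervals of Wnt5a (-0.69 to 0.46), Fzd7 (-0.50 to 0.35), Lrp6 (-0.28 to 0.42) and Dkk3 (-0.52 to 0.29) held no change as large as 2-fold.

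In non-mesenchymal cells of the H19DMD model, limma called none of the 20 members tested, against 0.0677% of 16239 genes, and 1 of the 20 had an unadjusted p under 0.05, against 5.35%. The medians were 0.13 over the members and 0.05 over all genes. Fzd6 had the smallest p, with each mutant library (5.57 to 6.13 FPKM) above each control library (1.64 to 4.96 FPKM), a log2 difference of 0.76 with a 95% interval of 0.09 to 1.44 (limma adjusted p = 0.892, exact permutation p = 0.0571). Fzd5 was at 10.5 ± 2.27 FPKM in mutants (SD, n = 4) and 7.10 ± 2.24 in controls (SD, n = 3), with overlapping libraries (log2 difference 0.53, limma adjusted p = 0.894). In these libraries the endocrine marker sum was 11050 to 20320 FPKM in mutants and 19670 to 29800 in controls, and the erythroid sum was 125.9 to 1364 against 104.0 to 337.2, with no marker of either list found in the table at 0 throughout, and their part in the Fzd6 and Fzd5 values was not tested. Rspo1 was at or under 0.941 FPKM in the 4 mutant libraries while 2 of the 3 control libraries were above 2 FPKM (log2 difference -1.13, adjusted p = 0.894). Of the 6 mesothelial markers, 5 also had a lower mean in mutants. Gpm6a (0.160 to 1.17 FPKM in mutants against 1.36 to 2.04 in controls) and Lrrn4 (0.165 to 0.285 against 0.294 to 1.85) did not overlap, while Wt1 (0.105 to 0.281 against 0 to 1.92), Msln (0.135 to 1.66 against 0.689 to 1.63) and Upk3b (0.611 to 0.992 against 0.549 to 2.51) did. Krt19, also a ductal gene, was higher in each mutant library (51.6 to 73.7 against 29.8 to 50.6 FPKM). The sum of the list overlapped between genotypes (53.6 to 76.1 against 39.5 to 55.5). The part of mesothelial cells in this Rspo1 difference was not tested.

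Whether the effect of the H19DMD genotype differed between fractions was tested in one fit of all 14 libraries. None of the 23 members tested passed, against 0.0117% of 17105 genes, and 1 had an unadjusted p under 0.05, against 6.35%. Fzd5 had the smallest p, with a difference of -0.92 ± 0.37 (SE) on the log2 scale (limma adjusted p = 0.755), followed by Fzd6 and by Lrp5 at -0.81 ± 0.49 (adjusted p = 0.857).

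In the Igf2 model, non-mesenchymal cells of mutants and controls were compared in a table of their own. Limma called none of the 23 members tested, against 0.0631% of 17441 genes, and 1 had an unadjusted p under 0.05, against 5.28%. The median difference of the members was -0.25 and that of all genes -0.03. Fzd1 had the smallest p, at 4.29, 5.93 and 8.90 FPKM in mutants and 10.2, 13.8, 9.38 and 9.998 in controls. All mutant values lay below all control values, by -0.72 on the log2 scale with a 95% interval of -1.34 to -0.10 (limma adjusted p = 0.919, exact permutation p = 0.0571).

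Wnt5a was at 1.15, 0.738 and 3.74 FPKM in Igf2 mutants and 3.52, 3.44, 3.58 and 3.75 in controls. Mutants 1 and 2 were low while mutant 3 lay at the top of the control range (log2 difference -0.81, 95% interval -1.70 to 0.08, limma adjusted p = 0.919). Lrp5 had 18.2, 16.8 and 38.2 against 30.2, 43.3, 26.5 and 36.7 FPKM, again with mutant 3 within the control range (-0.54, -1.30 to 0.22, adjusted p = 0.919). All 10 Frizzled genes had a lower mean in mutants, which is given as a description, and 9 of them were tested and none called. The Frizzled sum was 36.1 and 32.2 FPKM in mutants 1 and 2. In mutant 3 it was 53.1, within the control range of 45.1 to 68.5. Fzd10 was near 0 in both groups, with means of 0.0431 FPKM in mutants and 0.0552 in controls. The acinar marker sum of 9 genes was 4362 to 6016 FPKM in mutants and 1937 to 2952 in controls, and the ductal sum was 886.6 to 1094 against 1111 to 1518, with no marker of either list at 0. Cell makeup as read from these markers thus moved with the genotype, and its part in the Frizzled values was not tested.

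**Figure D4:**
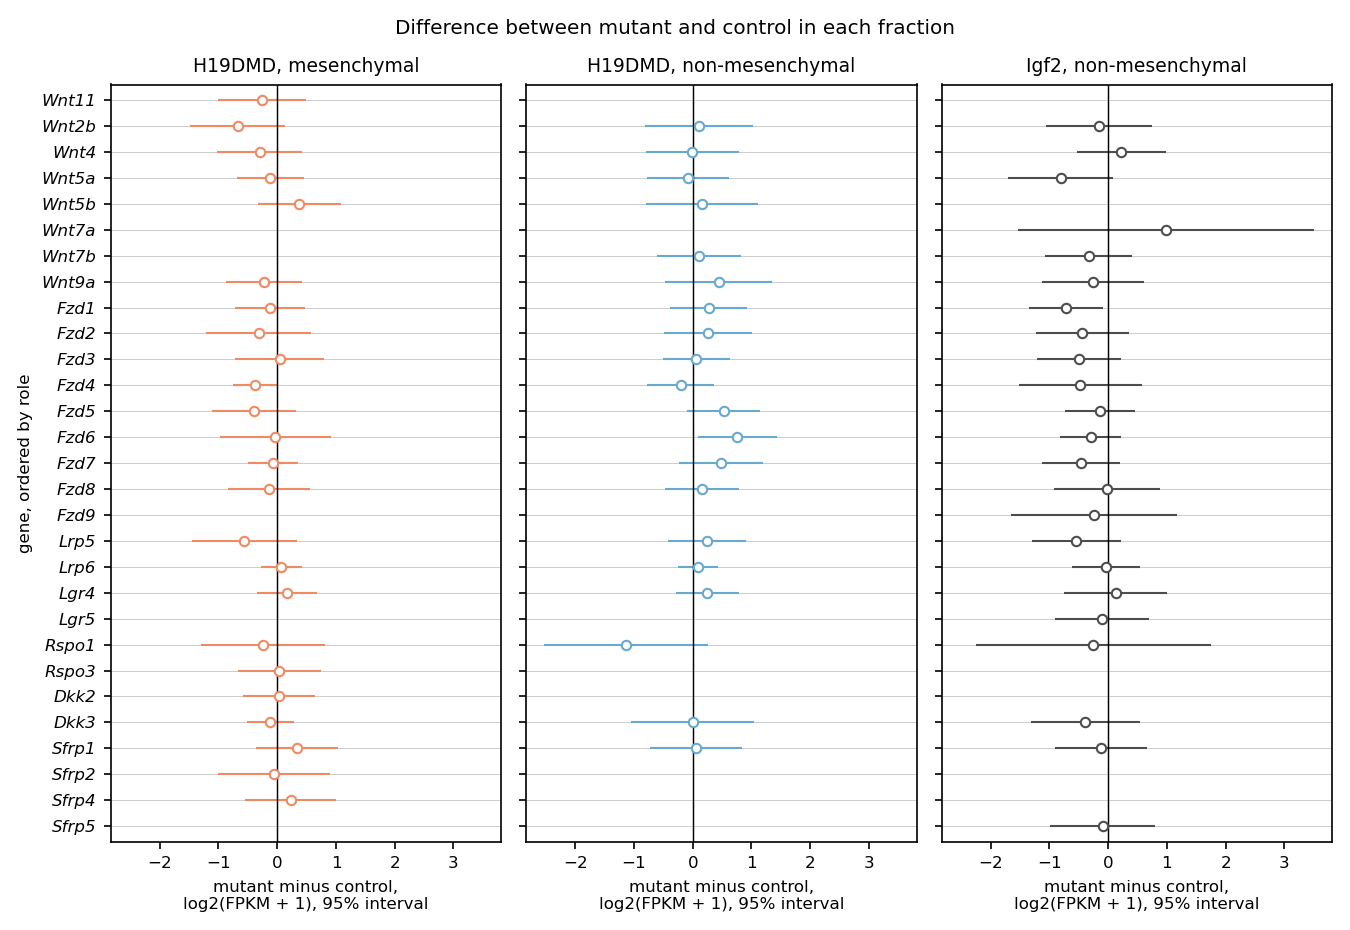
Difference between mutant and control libraries, on the log2(FPKM + 1) scale with its 95% interval, for each gene tested in mesenchymal and non-mesenchymal cells of the H19DMD model and non-mesenchymal cells of the Igf2 model. No point passed the adjusted p threshold of 0.05, so all are open. Rows without a point were below the expression minimum in that comparison.

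The tables of the 2 models were normalised separately, so levels are only set side by side. Lrp6, Lrp5, Lgr4, Fzd1, Fzd3, Fzd5 and Fzd7 were above 4 FPKM in each non-mesenchymal library of either model. Lrp5 was at 34.2 ± 7.42 FPKM (SD, n = 4) in Igf2 controls and 15.5 ± 3.83 (SD, n = 3) in H19DMD controls, and this gap was not tested. Wnt7a, a ligand of neurons and epithelia, was at 0, 0, 0.306 and 12.4 FPKM in Igf2 controls. In Igf2 mutants it was at 6.95, 4.60 and 0.486 FPKM. It was thus absent or low in most libraries and high in a few of both genotypes (log2 difference 0.98, 95% interval -1.54 to 3.51, limma adjusted p = 0.924). In the H19DMD model Wnt7a was above 1 FPKM in a single library, at 3.74 FPKM, and was listed at 0 in each mesenchymal library.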

How the data were processed

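RNA was taken from sorted cells, 2 ng of total RNA was amplified, and single-end reads of 50 bases were made, per the labels' protocols. TopHat2 2.0.8, Cufflinks 2.2.1 and GRCm38 are named without roles in the submitters' processing notes. The authors deposited FPKM values in 2 tables, each for 1 model. Of 31 samples, 10 had no values used here.

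Values were tested as log2(FPKM + 1) with limma 3.58.1 (R 4.3.3; variance trend; Benjamini-Hochberg adjustment over all genes tested, threshold 0.05), for genes averaging 1 FPKM or more across both groups. Fold changes on this scale understate changes of low genes. Exact permutation tests used scipy 1.17.1. The fits were tested on simulated data. Gene positions came from GENCODE M21 and promoters from RefSeq.

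The members and gene lists were chosen with earlier results of these data known. Values in every library are given for members past the threshold between fractions, and otherwise for the 3 smallest p in each mutant comparison. In some groups they are also given for Wnt7a, Wnt7b, Wnt9a, Wnt10b and Wnt11. Of other pathway genes, up to 3 higher and 3 lower per contrast are named. Alternatives covered scaling, pseudocount, expression minimum, variance trend, protein-coding genes, a replicate block and leaving out each library.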

Additional observations from a re-analysis of the deposited data

Results flagged for a closer look

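Of 69 groups of 4 libraries checked for a value far from the other 3 (Dixon's criterion for 4 values, on the log2(FPKM + 1) scale), 5 stood out, and chance gives about 1 in 20. In mutant mesenchymal cells of the H19DMD model, library 4 had 4.77 FPKM of Wnt4 where the others had 2.205 to 2.51, and 0.407 FPKM of Fzd6 where the others had 2.09 to 2.33. Library 2 of the same group had 6.34 FPKM of Wnt9a, with the others at 3.08 to 3.37. In non-mesenchymal controls of the Igf2 model, library 4 had 12.4 FPKM of Wnt7a, with the others at 0 to 0.306, and library 3 had 6.17 FPKM of Rspo1, with the others at 0 to 0.329.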

How the results depend on the processing

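The number of members called between fractions was 15 in controls and 13 to 17 over the alternatives, and 16 in mutants and 15 to 21, the latter with no expression minimum. Without single libraries it was 13 to 14 in controls and 16 to 18 in mutants. In the mutant comparisons and for the genotype effect between fractions it was 0 in each alternative, library by library too. For the members called between fractions and the 3 with the smallest p in each other comparison, the log2 difference kept its sign in each alternative run, and the calls lost were those of Fzd5 (8 alternatives, adjusted p 0.0623 to 0.140) and Lrp5 (9 alternatives, 0.0534 to 0.124) in controls; the cause was not tested. Median-ratio scaling of the libraries left 15 and 16 calls; it moved the median log2 difference of all genes from 0.08 to -0.03 in controls and from -0.11 to -0.00481 for the genotype effect between fractions.

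Same-numbered libraries had correlations of at most 0.0679, in some pairs above and in others below those of differently numbered libraries. The groups are small and the fractions differ in cell types, so this cannot decide whether the numbers pair samples. With a replicate block 13 members were called between fractions in controls, 16 in mutants and 0 in each of the other comparisons, with Fzd5 (adjusted p = 0.116) and Lrp5 (0.0549) not called in controls, and a replicate block within genotype, added after seeing the data, also left 0 for the genotype effect between fractions. Of the 47 members, 16 had under 1 FPKM on average in each group. Read counts behind FPKM values are unknown, and whether depth limits these genes was not tested.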
